A study of Mus musculus with 6 samples.

Results

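The cytosolic ribosomal protein genes encode the proteins of the small (40S) and large (60S) subunits of the ribosome that translates nuclear messages. They were taken by name: symbols that start with Rpl or Rps followed by a number, with no ending or with the ending a, x, l or l1, together with Rpsa, Rplp0, Rplp1, Rplp2 and Fau. Pseudogenes named with -ps were left out. This gave 85 of the 50383 genes in each table, 34 of the small and 51 of the large subunit. The annotation GENCODE M21 lists 82 of them as protein-coding and 3 as processed pseudogenes (Rpl6l, Rps4l and Rps12l1). A mean of at least 1 FPKM (fragments relative to transcript length and to the size of the library) over the libraries was needed for a test, and 81 genes reached it.

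RNA came from dissected lateral amygdala, where fear memories are formed and kept, of male mice aged 2 to 3 months on a 129xC57BL/6 hybrid background. There were 3 groups of 2 libraries: control, scrambled siRNA (a nontargeting siRNA whose sequence is shuffled) and Baf53b siRNA, whose target is the neuronal BAF chromatin remodelling subunit BAF53b, encoded by Actl6b. The siRNA was injected into trained mice 1 day after training. The labels name tissue of 4 mice but not how mice were shared among libraries, what the control mice received, or what the replicate numbers 1 and 2 stand for, so the p-values measure only the spread between these libraries, which may be technical.

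Each ribosome carries a single copy of almost every ribosomal protein, and the genes are transcribed at high and roughly balanced rates in nearly all cells. Their messages usually begin with an uninterrupted run of pyrimidines, the 5′ terminal oligopyrimidine (TOP) tract, through which LARP1 and the kinase mTOR set how strongly they are translated. In neurons part of these messages lies in dendrites and axons, and translation is needed for long-term memory. FPKM measures the amount of message and not its translation.

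The pyrimidine tract is the regulatory sequence these messages are known for, and the region where it lies is shown here for genes that the results below turn on. The windows were read from RefSeq (GRCm38.p6, strand of the gene) and span 20 bases before to 10 bases from the annotated start. Capitals mark a stretch of C and T of at least 6 bases found between 5 bases before and 10 bases from the start. For Rps21 and Rpl34, which have 2 annotated starts each, the window holding such a run was taken. Rps6, the small-subunit protein phosphorylated downstream of mTOR, is added for comparison.
Rpl27a, chr7:109519175-109519204, plus strand: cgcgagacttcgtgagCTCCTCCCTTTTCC
Rpl22l1, chr3:28805488-28805517, plus strand: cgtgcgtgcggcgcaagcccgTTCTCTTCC
Rps21, chr2:180257359-180257388, plus strand: gcacttaccgaggacccgCCCTCCTgccca
Fau, chr19:6057927-6057956, plus strand: ggacgtgcgcgcccccaCTTCTTCCTCTTT
Rpl34, chr3:130730389-130730418, minus strand: cgcgccgccttccctgacgtaCTTCCTgtc
Rps6, chr4:86857358-86857387, minus strand: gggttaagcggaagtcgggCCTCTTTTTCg
Rplp0, chr5:115559447-115559476, plus strand: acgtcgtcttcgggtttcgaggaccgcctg
Rplp0, listed last, had no such run in the searched 15 bases. RefSeq windows were found for 59 of the 81 tested genes, 70 windows in all. A run of at least 6 pyrimidines stood in 28 of these 70, and in 4194 (12.8%) of all 32851 windows. In the 250 bases before the start, CCGGAAG on either strand was found in 25.7% of the windows of ribosomal protein genes and in 6.91% of all windows, and TATAAA on either strand in 5.71% against 12.4%. A match describes the letters only, and a missing match says nothing about a factor or a tract outside the window.

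The libraries as a whole set limits for these genes. Actl6b was at 42.9 and 44.1 FPKM in the control libraries, 43.8 and 43.9 with scrambled siRNA, and 42.8 and 39.6 with Baf53b siRNA, a difference of -0.09 (log2) from scrambled siRNA with limma's adjusted p = 1, so a fall of its message was not detected in the libraries labelled Baf53b siRNA. Genes of the mitochondrial chromosome took between 15.0% and 29.5% of the FPKM sum, more in replicate 2 than in replicate 1 of every group. Much of the rise in both siRNA groups lay in 1 gene. This gene, mt-Atp8, was at 39684.5 and 59791 FPKM in control, 14150.6 and 67506.6 with scrambled siRNA, and 35104.1 and 57133.7 with Baf53b siRNA. All mitochondrial genes together had 118616 and 190008, 91622.6 and 173573, and 122465 and 144313 FPKM in the same order. FPKM is relative to the size of the library, so a change in 1 large part can move the values of other genes. How far this applied to the nuclear genes was not tested. The 14663 genes tested had a median difference of -0.10 (log2) between replicates 2 and 1.

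Ribosomal protein genes were among the most abundant nuclear messages in the lateral amygdala. They held 26 of the 100 places of the nuclear protein-coding genes with the highest mean FPKM, and 77 of the 85 had a mean of at least 100 FPKM. The 3 above 1000 FPKM were Rplp1, Rps29 and Rps27. Rplp1 is a stalk protein of the large subunit that helps to recruit elongation factors, and its level was 1204 ± 13.8 FPKM in control, 1465 ± 70.8 FPKM in scrambled siRNA and 1469.5 ± 111 FPKM in Baf53b siRNA (SD, n = 2). Rps29, a small zinc-binding protein of the 40S head, stood at 1236 ± 229 FPKM in control, 1455 ± 115 FPKM in scrambled siRNA and 1429.7 ± 135 FPKM in Baf53b siRNA (SD, n = 2). Rps27 stood at 932 ± 161 FPKM in control, 1072 ± 238 FPKM in scrambled siRNA and 1045 ± 119 FPKM in Baf53b siRNA (SD, n = 2). These levels overlapped between the 3 genes. Next followed Rps24 (mean over the 6 libraries 864 FPKM), Rps15 (827 FPKM) and Rpl13a (715 FPKM).

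The stalk genes did not share one level although their proteins sit in 1 complex. Rplp2, the partner of Rplp1, had a mean of 195 FPKM and Rplp0, which anchors both to the ribosome, 100.2 FPKM, against 1379.7 FPKM for Rplp1. Rplp0 was the lowest of the genes above 100 FPKM. The genes whose proteins are made fused to ubiquitin or a ubiquitin-like protein, Rps27a and Fau, had means of 339 and 277 FPKM. Reads that also match pseudogenes could be split between copies: the tables hold 277 rows named as ribosomal protein pseudogenes, 99 of them at a mean of at least 1 FPKM, so levels of single genes carry that uncertainty.

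Below these genes lay only close copies. Rps4l averaged 29.3 FPKM, Rps27l 22.6 FPKM and Rpl6l 10.9 FPKM. Rpl7l1 lay between 12.5 and 15.5 FPKM. The 4 genes under 1 FPKM were Rps12l1 at 0.955, Rpl39l at 0.233, Rpl3l at 0.0947 and Rpl10l, which is listed at 0 in all 6 libraries. Rpl3l is best known from heart and skeletal muscle, and Rpl10l and Rpl39l from testis.

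The level of these genes as a whole differed from library to library. Their median was 257 and 276 FPKM in the control libraries, 330.5 and 265 with scrambled siRNA, and 335 and 269 with Baf53b siRNA, for replicates 1 and 2 in turn. Replicate 1 of both siRNA groups stood highest, and the other 4 libraries lay close together. Summed over the 85 genes, they made up 5.03% and 6.02% of the nuclear FPKM in the control libraries, 6.40% and 5.58% with scrambled siRNA, and 6.47% and 5.48% with Baf53b siRNA. On that scale, which leaves out the mitochondrial genes, replicate 1 of control was the lowest library and replicate 1 of each siRNA group the highest. Control replicate 1 was the lowest of the 6 libraries for 42 of the 81 tested genes (13.9% of all genes tested), and for 51 of 81 (14.2%) after rescaling to a common nuclear sum.

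**Figure D1:**
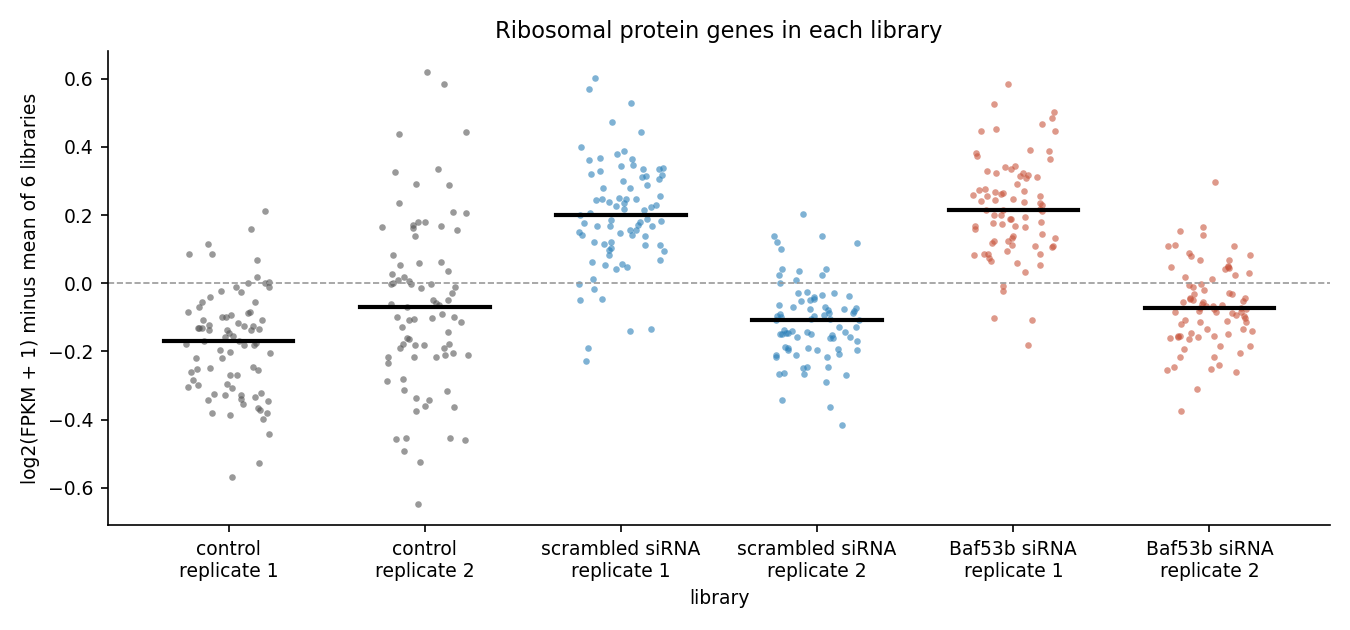
Level of each of the 81 tested ribosomal protein genes in each library, as log2(FPKM + 1) minus the mean of that gene over the 6 libraries. Points are genes and black bars are medians; the bars of replicate 1 of scrambled siRNA and of Baf53b siRNA lie above 0, those of the other 4 libraries below it.

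The central question of the design is whether Baf53b siRNA changed these messages relative to scrambled siRNA. No ribosomal protein gene passed the test: limma on log2(FPKM + 1), with Benjamini-Hochberg adjustment over all 14663 genes, called 0 of 81 higher and 0 of 81 lower at an adjusted p under 0.05, while 0.123% of all genes were called higher and 0% lower. The median difference was 0.01 (log2), against 0.003 over all genes tested, with 48 genes higher (50.9% of all genes) and 33 lower (49% of all genes). At an unadjusted p under 0.05 there was 1 gene, Rps27l, which was higher, as were 2.67% of all genes.

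Rps27l, a close copy of Rps27 known as a p53 target, had the largest difference (ENSMUSG00000036781.13, mm10 chr9:66946086-66949516). Its level was 22.8 and 20.9 FPKM in the control libraries, 19.6 and 20.2 with scrambled siRNA, and 28.1 and 24.3 with Baf53b siRNA. Both Baf53b siRNA libraries stood above all 4 others. The difference from scrambled siRNA was 0.38 (log2, SE 0.14; limma adjusted p = 1).

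Rps9, a small-subunit protein near the entry of the mRNA channel, came second (ENSMUSG00000006333.14, mm10 chr7:3703993-3706897). It was at 257 and 286 FPKM in the control libraries, 357 and 328 with scrambled siRNA, and 408 and 413 with Baf53b siRNA. The Baf53b siRNA libraries were the 2 highest and differed little from each other. The difference was 0.26 (SE 0.15; limma adjusted p = 1).

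Rps13, another small-subunit protein, was at 177 and 176 FPKM in the control libraries, 209 and 186 with scrambled siRNA, and 253 and 212 with Baf53b siRNA. Its groups did not overlap, with a difference of 0.23 (SE 0.15; limma adjusted p = 1). The stalk genes Rplp2 (0.19) and Rplp0 (0.18) and Fau (0.18) followed, each with overlapping groups. Rplp0 and Fau turned below 0 without scrambled siRNA replicate 2 or without Baf53b siRNA replicate 1.

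At the other end stood Rpl22l1, the close copy of the RNA-binding large-subunit gene Rpl22, at -0.12 (SE 0.22; limma adjusted p = 1). Rpl38 (-0.08), Rpl9 (-0.08), Rpl21 (-0.07), Rpl26 (-0.07) and Rpl37 (-0.05), all large-subunit genes, completed the lowest 6. The interval of these differences was wide: for Rpl38 the 95% interval ran from -0.60 to 0.44 (log2). Over the 81 genes, 7 were higher in both Baf53b siRNA libraries than in both scrambled siRNA libraries (Rps26, Rpl23, Rps2, Rps4l, Rps9, Rps13 and Rps27l), or 8.64% against 13.1% of all genes tested. In the other direction there was 1 gene, Rpl22l1, or 1.23% against 9% of all genes. Both shares lie below those of all genes. The replicate 1 libraries were nearly level for Rpl22l1, at 167.7 FPKM with Baf53b siRNA and 168.2 FPKM with scrambled siRNA.

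Against control, most of these genes stood higher in both siRNA groups, without any passing the test. The 2 comparisons share the control libraries, so they are given side by side and are not independent. In Baf53b siRNA the median difference was 0.19 (log2; 0.04 over all genes), with 73 of 81 genes higher (60.7% of all genes) and 8 lower (39.3%). For scrambled siRNA it was 0.17 (0.04 over all genes), with 71 of 81 higher (63.6%) and 10 lower (36.4%), and without scrambled siRNA replicate 1 this median was -0.01. Limma called 0 of 81 genes in either, against 1.23% of all genes higher in Baf53b siRNA, 0% lower, and 0% in either direction in scrambled siRNA. At an unadjusted p under 0.05 there were 2 of 81 genes in Baf53b siRNA (Rps9 and Rps13, both higher, as were 4.75% of all genes) and 0 in scrambled siRNA (2.03% of all genes higher). In a bulk sample, more cells of a type and more RNA per cell cannot be told apart.

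Both subunits had medians above 0. In Baf53b siRNA the 33 tested small-subunit genes had a median of 0.25 with all 33 higher, and the 48 large-subunit genes 0.17 with 40 higher. For scrambled siRNA these medians were 0.20 (30 of 33 higher) and 0.15 (41 of 48 higher). The difference between subunits was not tested.

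Rps9 stood farthest above control in Baf53b siRNA. From the levels above, its difference was 0.60 (SE 0.15; limma adjusted p = 0.229) in Baf53b siRNA and 0.33 (SE 0.15; limma adjusted p = 1) in scrambled siRNA. Its 2 control libraries lay below the other 4. Rplp0 (ENSMUSG00000067274.10, mm10 chr5:115559467-115563727) was at 89.6 and 75.3 FPKM in the control libraries, 124 and 81.2 with scrambled siRNA, and 137 and 94.2 with Baf53b siRNA. Its difference from control was 0.46 in Baf53b siRNA, where no library overlapped, and its replicate 1 exceeded its replicate 2 in every group. Rpl36 (0.45), Rps14 (0.41) and Fau (0.40) were among the next, with limma adjusted p = 1 for each of them and for Rplp0.

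In scrambled siRNA the genes farthest above control were Rps14 (0.43), a protein of the 40S platform, and the genes Rpl34 (0.39), Rps28 (0.37), Rpl37 (0.36), Rps9 and Rps15a (0.33). Rpl34 turned to -0.01 without scrambled siRNA replicate 1. The lowest value in both comparisons was that of Rpl35, a large-subunit protein near the exit of the peptide tunnel, at -0.21 in Baf53b siRNA and -0.20 in scrambled siRNA. Its level was 135 and 264 FPKM in the control libraries, 173 and 155 with scrambled siRNA, and 176 and 151 with Baf53b siRNA. The control replicates lay at the lowest and the highest of the 6 values, and without control replicate 2 the differences turned to 0.26 and 0.27.

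The libraries of the 2 groups did not overlap for 26 of 81 genes in Baf53b siRNA against control, all higher (32.1%, against 16.7% of all genes higher), and 0 lower (7.11% of all genes). In scrambled siRNA against control there were 16 genes higher (19.8% against 12.7%) and 1 lower, Rps27l (1.23% against 5.57%).

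Markers of other cell types differed in the same comparisons. Of 20 microglia markers tested, 11 were called higher in Baf53b siRNA against control by limma at an adjusted p under 0.05, among them C1qa (2.05, log2) and Ctss (2.01). In scrambled siRNA against control 0 were called, with 20 of 20 higher and a median of 0.63. Their summed level was 444 and 432 FPKM in the control libraries, 767 and 747 with scrambled siRNA, and 1332 and 1096 with Baf53b siRNA. Of 16 astrocyte markers 2 were called higher in Baf53b siRNA against control, Gfap (3.23) and Aqp4 (0.80), with a list median of 0.07, 11 higher and 5 lower. Of 20 leukocyte genes listed, only 7 reached the mean of 1 FPKM, and 5 of these 7 were called higher (such as Cd74, 6.40). Among the called genes, H2-Aa, H2-Ab1 and H2-Eb1 lay under 1 FPKM in both control libraries. Cd74, also called, was at 1.18 and 0.416 FPKM in the control libraries. These genes reached the mean through the siRNA libraries, so the filter favoured genes that are high there and the share called has no weight. Ly6c2 and Trbc2 were not called, and Trbc2 was at 0.0827 and 0.438 FPKM in the control libraries. Against scrambled siRNA, Baf53b siRNA had 0 of 20 microglia markers called (19 higher, median 0.49). Gfap was called higher (1.89), with a median of -0.02 over the 16 astrocyte markers. In the same comparison 3 of 7 leukocyte genes were called higher (such as Cd74, 3.96), a share with no weight for the same reason. The 15 neuron markers tested were all lower in that comparison, with a median of -0.07 and none called. Against control, 12 of 13 oligodendrocyte and myelin genes were higher in Baf53b siRNA (median 0.19) and 13 of 13 in scrambled siRNA (median 0.29). Endothelial markers were higher for 11 of 12 (0.25) and 8 of 12 (0.11). Choroid plexus and ependymal genes were lower for 4 of 6 (-0.44) and 5 of 6 (-0.50). None on these last 3 lists was called. No marker on any of these lists was at 0 in all libraries. The part of these cells in the ribosomal protein values was not tested.

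When libraries of 1 replicate number were compared, the siRNA groups stood above control among the replicate 1 libraries and close to it among the replicate 2 libraries. In replicate 1 the median difference from control was 0.41 (log2) in Baf53b siRNA, with 80 of 81 genes higher, and 0.40 in scrambled siRNA, with 79 of 81 higher. Among the replicate 2 libraries it was 0.02 (44 of 81 higher) and -0.03 (36 of 81 higher). The medians over all genes tested were 0.02 and 0.05 in replicate 1 and 0.06 and 0.04 in replicate 2. The 2 siRNA groups differed little within either number, by 0.01 in replicate 1 and 0.02 in replicate 2. Each of these is a difference of 2 libraries with no test. Rescaling to a common nuclear sum gave 0.36 and 0.33 in replicate 1, and -0.09 (27 of 81 higher) and -0.08 (26 of 81 higher) in replicate 2.

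**Figure D2:**
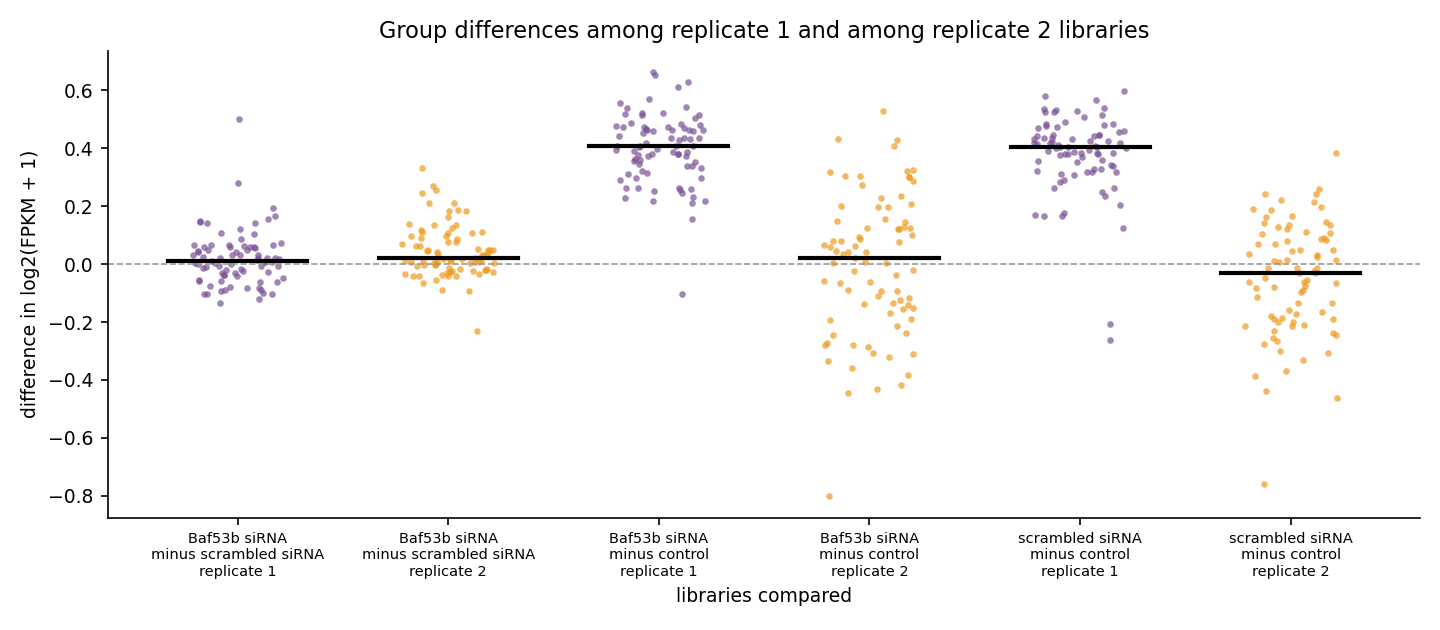
Difference in log2(FPKM + 1) between groups for the 81 tested ribosomal protein genes, taken among the replicate 1 libraries (purple) and among the replicate 2 libraries (orange). Points are genes and black bars are medians; the bars of the siRNA groups lie 0.41 and 0.40 above control in replicate 1, and 0.02 above and 0.03 below it in replicate 2.

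Which genes stood above control also changed with the number. Rps9 was above control in both, by 0.66 and 0.53 in Baf53b siRNA and 0.47 and 0.20 in scrambled siRNA. In contrast Rpl35 went from 0.37 to -0.80, Rpl27a from 0.35 to -0.44 and Rpl23a from 0.49 to -0.43.

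The replicate numbers were compared directly, with group as a term in the model, which leaves 2 residual degrees of freedom. Limma called 2 of 81 genes at an adjusted p under 0.05, Fau and Rps14, both lower in replicate 2 (0.423% of all genes were called lower). None was called higher (0.0341% of all genes), and at an unadjusted p under 0.05 there were 3 higher and 26 lower (4.19% and 22.5% of all genes). Neither call held after rescaling to a common nuclear sum or median-of-ratios scaling, where 0 of 81 genes were called, and leaving out any siRNA library also gave 0. The median of the 81 genes was -0.14 (log2), with 59 lower and 22 higher (67.1% and 32.9% of all genes), against -0.10 over all genes.

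Fau encodes the small-subunit protein eS30 fused to a ubiquitin-like protein (ENSMUSG00000038274.11, mm10 chr19:6057888-6059524). It was at 288 and 184 FPKM in the control libraries, 362 and 199 with scrambled siRNA, and 399 and 230.4 with Baf53b siRNA. Every replicate 2 library was below every replicate 1 library, and the difference was -0.76 (SE 0.08; limma adjusted p = 0.0445). Rps14 (ENSMUSG00000024608.10) was at 325 and 195 FPKM in the control libraries, 455 and 255 with scrambled siRNA, and 423 and 263 with Baf53b siRNA, with the same separation. Its difference was -0.75 (SE 0.08; limma adjusted p = 0.0432).

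The largest difference was that of Rps21, a small-subunit protein (ENSMUSG00000039001.12, mm10 chr2:180257377-180258445), which did not pass the test. Its level was 700.1 and 487 FPKM in the control libraries, 1015 and 519 with scrambled siRNA, and 962 and 515 with Baf53b siRNA. Replicate 1 of each siRNA group was nearly level with the other and above the remaining libraries. The difference was -0.80 (SE 0.12; limma adjusted p = 0.0556). Rpl34 (-0.65), Rps15 (-0.63) and Rpl18 (-0.56), with limma adjusted p between 0.0541 and 0.0624, completed the lowest 6.

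A few genes went the other way. Rpl27a (ENSMUSG00000046364.14, mm10 chr7:109519147-109522367) was at 194 and 419.9 FPKM in the control libraries, 254 and 304 with scrambled siRNA, and 247 and 308 with Baf53b siRNA. Rpl30 (ENSMUSG00000058600.13, mm10 chr15:34440505-34443640) was at 235 and 473 FPKM in the control libraries, 318 and 402 with scrambled siRNA, and 325 and 391 with Baf53b siRNA. Both are large-subunit genes, both were higher in replicate 2 of every group, and the 2 control libraries lay at the extremes. Their differences were 0.56 (SE 0.18; limma adjusted p = 0.124) and 0.54 (SE 0.16; limma adjusted p = 0.110). The pseudogene Rpl6l followed at 0.46 (limma adjusted p = 0.102), and then Rpl22l1 (0.25), Rpl31 (0.22) and Rps26 (0.20), whose libraries overlapped. Rps26 turned to -0.03 without either control library.

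Over the 81 genes, 18 had no overlap between the numbers and were lower in replicate 2 (22.2% against 28% of all genes), and 3 were higher (3.70% against 6.94%). Lower in replicate 2 of all 3 groups were 30 genes (37.0% against 37.1%), and higher in all 3 were 4 genes, Rpl6l, Rpl30, Rpl27a and Rps15a (4.94% against 11.4%). These shares lie near or below those of all genes. Averaged over the 3 groups, mitochondrially encoded genes were higher in replicate 2, with 15 of 15 tested genes up and a median of 0.45, none called. The rise was not uniform. Within Baf53b siRNA, mt-Co1 went from 15534.5 to 14535.1 FPKM and mt-Cytb from 9309.45 to 8904.6 FPKM, while mt-Rnr2 went from 3486.78 to 4169.16 FPKM. The part of the mitochondrial genes in the values of the ribosomal protein genes was not tested.

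**Figure D3:**
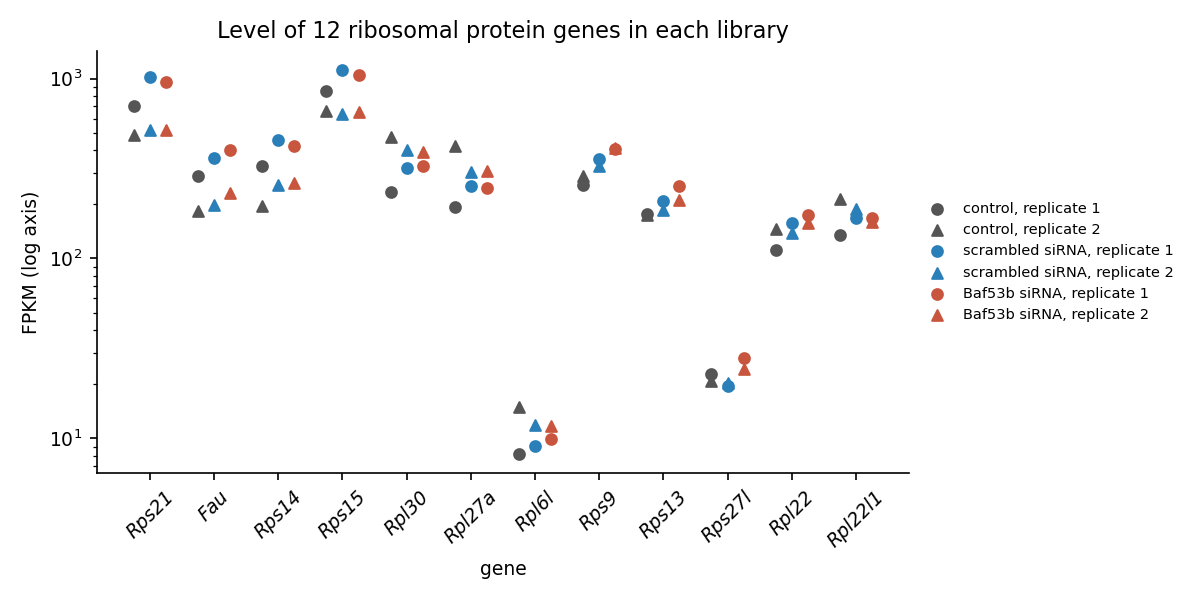
FPKM (log axis) of 12 ribosomal protein genes in each library; circles are replicate 1 and triangles replicate 2. For Fau and Rps14 all triangles lie below all circles, for Rpl27a and Rpl30 all triangles lie above all circles, and for Rps9 both Baf53b siRNA libraries (red) are highest.

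The replicate difference had opposite signs in the groups for many genes. Within control the median of replicate 2 minus replicate 1 was 0.12 (log2), with 50 genes higher and 31 lower. Within scrambled siRNA it was -0.30, with 8 higher and 73 lower, and within Baf53b siRNA -0.27, with 5 higher and 76 lower. Over all genes tested these medians were -0.11, -0.13 and -0.07. There were 42 of 81 genes that were higher in replicate 2 of control and lower in replicate 2 of both siRNA groups, against 11.5% of all genes. On the common nuclear sum the 3 medians were 0.24, -0.16 and -0.21, with 62, 20 and 12 genes higher, and those of all genes -0.004, -0.009 and -0.01. Each pair is 1 library against 1, so the difference between groups was not tested.

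Despite the offset of the control pair, the genes kept much of their order. Across the 81 genes, Pearson's r between the pair difference in scrambled siRNA and that in Baf53b siRNA was 0.94 (Spearman 0.94). Control against scrambled siRNA gave 0.79 (0.73) and control against Baf53b siRNA 0.77 (0.73). The pairs share no library, but the genes are not independent replicates and the values are descriptions. Over all 14663 genes tested Pearson's r was 0.36, 0.39 and 0.18 in the same order.

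**Figure D4:**
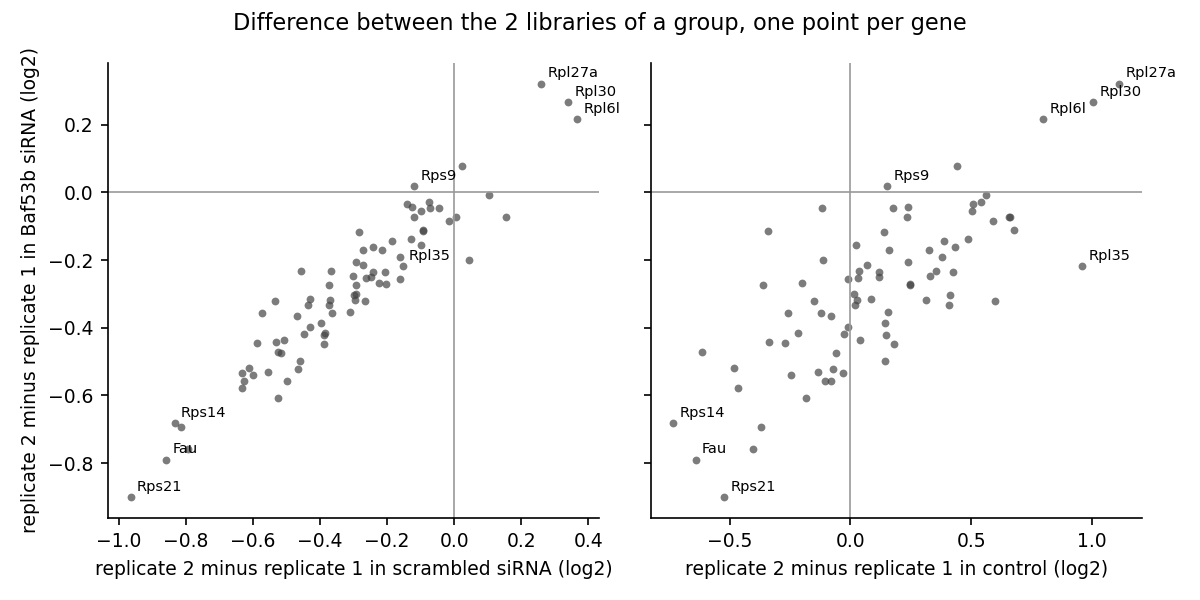
Replicate 2 minus replicate 1 in log2(FPKM + 1), one point per tested ribosomal protein gene (n = 81): Baf53b siRNA on the vertical axis against scrambled siRNA (left) and control (right). Genes follow a rising line in both panels (Pearson's r 0.94 and 0.77), and in the right panel the cloud reaches further to the right of 0, with Rpl27a, Rpl30 and Rpl35 near 1 in control.

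The pair differences were larger than the error the authors gave for single values. From the deposited confidence intervals, the SE of a pair difference had a median of 0.05 (log2) per group. In control 63 of 81 genes, in scrambled siRNA 72 and in Baf53b siRNA 64 differed between their 2 libraries by more than 2 such SE. These intervals cover the estimate within 1 library and not variation between animals or preparations.

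The replicate difference varied with base composition. The share of G and C in the coding sequence was known for 79 of the 81 genes, and its Spearman correlation with the mean replicate difference was -0.44 (Pearson -0.48). Over the 12512 genes tested that have a coding sequence it was -0.43 (Pearson -0.35), close to the value of the ribosomal protein genes. The 26 genes with the lowest share of G and C (39.9% to 50.6%) had a median of -0.07, the 26 in the middle -0.23, and the 27 with the highest share (54.6% to 61.6%) -0.27. All genes tested within the same bounds had medians of -0.01, -0.12 and -0.21. Within control alone the medians of the ribosomal protein genes were 0.28, 0.005 and -0.03, and those of all genes -0.004, -0.11 and -0.24. Coding length (Spearman -0.07) and mean FPKM (-0.01) showed little relation across the 79 genes.

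**Figure D5:**
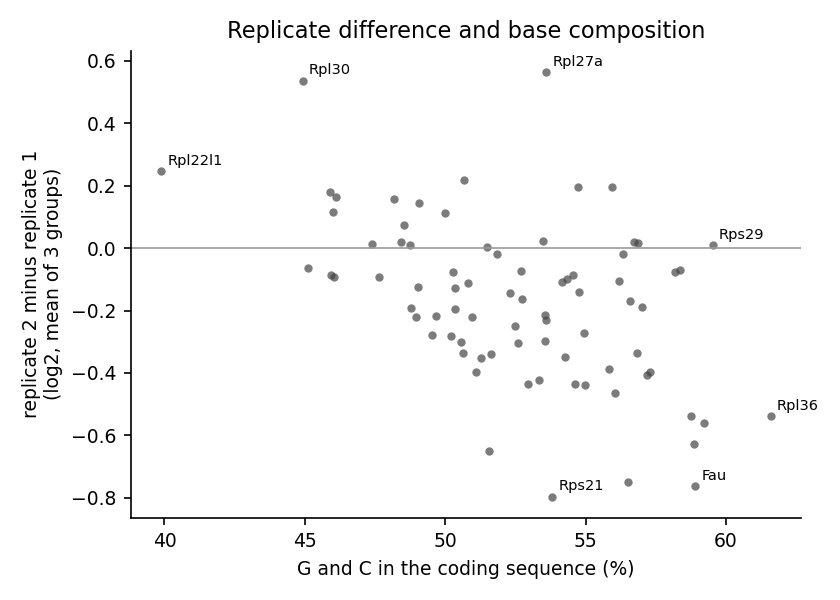
Share of G and C in the coding sequence (percent) against the mean of replicate 2 minus replicate 1 over the 3 groups (log2), one point per ribosomal protein gene (n = 79). Points fall from left to right (Spearman -0.44), with Rpl22l1 and Rpl30 at the upper left, Rpl36 and Fau at the lower right, and Rpl27a, Rps29 and Rps21 away from the trend.

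The first 90 coding bases show this contrast in the genes themselves (principal transcripts of GENCODE M21, build mm10, with G and C in capitals). Among the 79 tested genes with a coding sequence, they are the 2 with the lowest share of G and C over its whole length, the gene with the highest, and Fau. Fau was not picked by its share: it was called in the replicate comparison. Rps29 (59.5%) and Rpl18 (59.2%), which are not shown, have a higher share than Fau.
Rpl22l1: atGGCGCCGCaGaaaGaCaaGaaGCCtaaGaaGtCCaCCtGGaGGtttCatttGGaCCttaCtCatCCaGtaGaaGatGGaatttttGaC
Rpl30: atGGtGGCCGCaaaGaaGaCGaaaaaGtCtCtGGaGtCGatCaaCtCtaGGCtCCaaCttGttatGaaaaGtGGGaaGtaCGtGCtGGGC
Rpl36: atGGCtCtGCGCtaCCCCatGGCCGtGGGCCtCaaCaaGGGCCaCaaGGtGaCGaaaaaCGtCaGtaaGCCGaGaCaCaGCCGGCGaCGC
Fau: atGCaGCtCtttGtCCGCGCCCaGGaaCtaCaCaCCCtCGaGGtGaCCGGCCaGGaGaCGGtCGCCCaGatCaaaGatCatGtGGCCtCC
Over the whole coding sequence, G and C made up 39.9% in Rpl22l1 and 44.9% in Rpl30, whose mean replicate differences were 0.25 and 0.54. They made up 61.6% in Rpl36 and 58.9% in Fau, with differences of -0.54 and -0.76. Rps29, at 59.5%, did not follow this order, with a difference of 0.01. Group differences ran weakly with G and C in the other direction: Spearman 0.27 across the 79 genes for Baf53b siRNA against control, 0.29 for scrambled siRNA against control and 0.10 for Baf53b siRNA against scrambled siRNA. Over the 12512 genes these values were 0.10, 0.18 and -0.06. The part of base composition in these differences was not tested.

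Close copies of the same protein were compared as ratios of FPKM within a library. Rpl22l1 (ENSMUSG00000039221.10, mm10 chr3:28805436-28807424) was as abundant as its parent Rpl22. Its level was 135 and 214 FPKM in the control libraries, 168 and 187 with scrambled siRNA, and 168 and 159 with Baf53b siRNA. Rpl22 was at 111 and 145 FPKM in the control libraries, 158 and 139 with scrambled siRNA, and 175 and 158 with Baf53b siRNA. In percent of Rpl22, Rpl22l1 came to 122% and 147% in the control libraries, 106% and 135% with scrambled siRNA, and 96.0% and 100.9% with Baf53b siRNA. The 2 Baf53b siRNA libraries were the lowest of the 6, and replicate 2 was above replicate 1 in every group. This ratio was chosen after its values were seen and has no test. The deposited interval of Rpl22l1 was wide in some libraries, so its level is less certain than that of its neighbours.

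Rps27l came to 2.78% and 2.00% of Rps27 in the control libraries, 1.58% and 2.24% with scrambled siRNA, and 2.49% and 2.53% with Baf53b siRNA, and these ranges overlapped between Baf53b siRNA and control. Rpl7l1 came to between 5.36% and 7.21% of Rpl7, with both control libraries highest. Rps4l lay between 8.60% and 14.1% of Rps4x, the X-linked small-subunit gene, with control replicate 1 apart from the other libraries. Rpl3, a protein of the peptidyl transferase centre, had a mean of 319 FPKM and its muscle copy Rpl3l 0.0947 FPKM. Rpl10 was at 376 FPKM and Rpl39 at 199 FPKM, with their testis copies near or at 0.

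Ribosomal protein genes whose names fall outside the rule ranged from levels like those above to low ones, with the retrotransposed copies Rps27rt between 8.69 and 39.2 FPKM and Rpl37rt between 23.9 and 48.7 FPKM. Rps3a1 was at 246 and 308 FPKM in the control libraries, 329 and 283 with scrambled siRNA, and 315 and 279 with Baf53b siRNA. Rack1, a signalling scaffold on the 40S head, was at 117 and 105 FPKM in the control libraries, 158 and 107 with scrambled siRNA, and 156 and 141 with Baf53b siRNA. For Rps3a1 and Rack1, replicate 1 of each siRNA group was above both control libraries. Of 7 such genes tested, 0 were called in any group comparison, and the median against control was 0.41 in Baf53b siRNA and 0.23 in scrambled siRNA with 7 of 7 higher in each. In the replicate comparison 7 of 7 were lower and 1 was called, Rps27rt, which may share reads with Rps27, at -1.29 (limma adjusted p = 0.0432).

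Other genes of translation had smaller median differences from control. Of 10 elongation factors tested, 0 were called in any comparison, with medians of 0.08 in Baf53b siRNA and 0.09 in scrambled siRNA against control. Of 30 initiation factors, 34 ribosome biogenesis factors and 16 genes of mTOR and LARP1, 0 were called in any comparison, and the medians against control lay between 0.02 and 0.05. Of 78 mitochondrial ribosomal proteins, which belong to a separate ribosome, 0 were called, with medians of 0.03 and 0.04. The 9 other messages with a TOP tract had medians of 0.08 and 0.06 against control. Of these 9, 1 was called, Vim, the intermediate filament gene vimentin, higher in Baf53b siRNA against control by 1.78 (limma adjusted p = 0.0133). In replicate 2 against replicate 1 their median was 0.11, with 7 higher and 2 lower. The medians of these lists against control lie near those of all genes (0.04 and 0.04), while those of the cytosolic ribosomal protein genes were 0.19 and 0.17. The difference between lists was not tested.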

How the data were processed

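Each library has 1 table of FPKM per gene with interval bounds and a status, as the authors deposited them and per the file headers. Polyadenylated RNA was selected and libraries were stranded and read from both ends, per the labels' protocols. The submitters' processing notes name TopHat2 (2.1.1), Cufflinks (2.2.1), bcl2fastq (2.19.1.403) and the build mm10. Which annotation and parameters were used, and how reads that match several genes were shared, is not given in the sources used here. With no counts at hand, the precision of a gene was read from its deposited interval, whose half-width was taken as 2 SE.

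Rows with 1 gene ID (48 IDs) were added up. Small RNA genes and 4 genes with a failed estimate were dropped, and 14663 genes with a mean of at least 1 FPKM remained for testing. Coordinates are 1-based, and start and end were identical in GENCODE M21 for 72 of the 85 ribosomal protein genes. Values of log2(FPKM + 1) of all 6 libraries were fitted by group with limma 3.58.1 in R 4.3.3 (trended eBayes, 3 residual degrees of freedom), with two-sided tests and Benjamini-Hochberg adjustment at 0.05. This scale understates the changes of low genes. The scripts were tested on simulated data. Alternatives were another pseudocount (0.1), filter, scaling, block or set of libraries.

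The genes and lists were chosen with earlier results of these data known. Genes are named when called, when among the 6 highest or 6 lowest in a comparison or in level, or when they are stalk, ubiquitin fusion or paralog genes. From the other lists, called genes and those with the largest differences could be named. Some genes that this rule would name are not reported here.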

Additional observations from a re-analysis of the deposited data

Results flagged for a closer look

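The difference between the replicates of a group went in opposite directions. The median over the 81 tested ribosomal protein genes of replicate 2 minus replicate 1 was 0.12 (log2) within control, -0.30 within scrambled siRNA and -0.27 within Baf53b siRNA. Each rests on 1 pair of libraries, and the difference between the groups was not tested.

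Signal also stood in rows that no comparison used. There are 92 such rows per table, named as spike-in controls; no label speaks of them. Their summed level was 117 and 125 FPKM in the control libraries, 207 and 656 with scrambled siRNA, and 4825 and 811 with Baf53b siRNA, for replicates 1 and 2 in turn, so all siRNA libraries were above both control libraries. The libraries with the highest median of the ribosomal protein genes (335 FPKM in Baf53b siRNA replicate 1 and 330.5 FPKM in scrambled siRNA replicate 1) had the highest spike-in level and the lowest among the siRNA libraries.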

How the results depend on the processing

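In the group comparisons 0 ribosomal protein genes were called under every alternative run, and the medians kept their sign except in these cases. Baf53b siRNA against scrambled siRNA went to -0.009 on the common nuclear sum and ranged from -0.14 to 0.19 with a library left out. Scrambled siRNA against control went to -0.01 without scrambled siRNA replicate 1. The replicate comparison called 2 genes and depended on the settings: 0 with no filter on low values, on the common nuclear sum and with median-of-ratios scaling, 12 with a mean of at least 5 FPKM, 8 with no group term, and 0 to 6 with a library left out. The cause was not tested.

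With the replicate number as a block (replicate block), 0 of 81 genes were called in each group comparison, and the medians stayed at 0.01, 0.19 and 0.17. The deviations of same-numbered libraries correlated across all genes at 0.39, 0.18 and 0.36 for the 3 pairs of groups. The labels do not say what a number marks, and with 2 numbers this is a hint only.

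Single genes reversed as follows. With quantile normalization Rpl38 went to 0.018 (Baf53b siRNA against scrambled siRNA). The ranges with a library left out follow.
For Baf53b siRNA against scrambled siRNA, values ran for Rpl38 from -0.30 to 0.13, Rpl9 from -0.29 to 0.13, Rpl21 from -0.14 to 0.0019, Rpl26 from -0.32 to 0.19, Rpl37 from -0.35 to 0.26, Rplp0 from -0.12 to 0.48 and Fau from -0.25 to 0.61. For Baf53b siRNA against control, values ran for Rpl35 from -0.69 to 0.26, Rpl14 from -0.24 to 0.094, Rpl22l1 from -0.38 to 0.28, Rpl27a from -0.60 to 0.51, Rpl6l from -0.44 to 0.35 and Rpl7l1 from -0.16 to 0.11. For scrambled siRNA against control, values ran for Rps4l from -0.31 to 0.034, Rpl35 from -0.68 to 0.27, Rpl6l from -0.49 to 0.31, Rpl14 from -0.22 to 0.11, Rpl27a from -0.59 to 0.52 and Rpl34 from -0.011 to 0.78. Between the replicates, values ran for Rps26 from -0.033 to 0.33. No alternative planned was left out.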
